A study of Rattus norvegicus with 13 samples.

Results

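The genes described here are insulin-like growth factor 1 (Igf1), its signalling receptor (Igf1r), the mannose-6-phosphate/IGF2 receptor (Igf2r), the insulin receptor (Insr) and 6 IGF binding proteins (Igfbp1 to Igfbp6), as measured in rat thyroid. They were picked by gene symbol from the array design, and every gene probe carrying 1 of these symbols was kept. This gave 10 of the 36174 names on the array, and 16 of its 45598 probes on 39 of its 58717 gene spots. All 16 probes were among the 25717 that were well above background on at least 6 arrays and were therefore tested. On all 13 arrays 15 of the 16 were well above background, and the exception was an Insr probe, which was well above background on 9.

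The thyroids came from 13 male Wistar rats of no stated genetic modification, with 7 in the control group and 6 in the KI-treated group. Their mothers were gavaged for 8 days, beginning on gestational day 9, with saline or with potassium iodide (KI, the stable iodine used to block uptake of radioactive iodine) at 1 mg/kg/day. The progeny were not dosed themselves, and the tissue was taken 30 days after weaning, at postnatal day 51. Each array was hybridised with the Cy3-labelled product made from total RNA of 1 thyroid. The litter of each animal is not named in the sources used here, so animals were treated as independent, and the p-values measure the spread between these arrays only.

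IGF1 is a secreted peptide that binds a receptor tyrosine kinase, IGF1R, and signals through the PI3K-AKT and RAS-MAPK cascades. The insulin receptor is the closest relative of IGF1R and can pair with it. IGF2R has no kinase and takes IGF2 to the lysosome. The binding proteins hold most IGF outside cells, and secreted proteases free the ligand by cleaving them. In thyroid follicular cells IGF1 is known to act together with thyrotropin on growth and on hormone synthesis.

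Each probe on this array is a 60-base oligonucleotide, and the sequences of those on which the results turn are given 5′ to 3′ in lower case, with no part marked. Positions are those of the array annotation on rat build rn4, where every probe covers 60 unbroken genomic bases, which places it in 1 exon. The annotation names a transcript and a start in it, but not the ends of the coding region. Whole probes are printed for 1 each of Igf1, Igf1r and Insr, which read coding sequence. For the others, whose place relative to the coding ends was not determined, the first 30 bases are printed. They are given to show that probes of the same gene read different stretches of its transcript.
Igf1 probe A_64_P052740, chr7:24587916-24587975, plus strand: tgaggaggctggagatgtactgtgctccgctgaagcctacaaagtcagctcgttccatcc
Igf1 probe A_44_P1087068, chr7:24605669-24605728, plus strand: tctagtcaacacagagaaaggagaaagcaa
Igf1 probe A_44_P1107298, chr7:24610779-24610838, plus strand: cagagcaatatcagtcctaatgactcgtga
Igf1r probe A_44_P474037, chr1:122989150-122989209, plus strand: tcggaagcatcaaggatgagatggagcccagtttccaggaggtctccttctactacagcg
Igf1r probe A_44_P1101096, chr1:122996687-122996746, plus strand: ggccacttgagtctattactctgctttttt
Insr probe A_64_P085396, chr12:3086616-3086675, plus strand: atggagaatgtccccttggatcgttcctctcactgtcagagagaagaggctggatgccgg
Insr probe A_44_P950583, chr12:3090759-3090818, plus strand: tatgatacgtggatgtattctgaattctag
Igfbp4 probe A_43_P16767, chr10:87834213-87834272, plus strand: ttagagacctgcttgttggctataatgtct
Igfbp5 probe A_64_P047478, chr9:72003659-72003718, minus strand: accccggaaacgtattcctatttgaagcaa
Igfbp6 probe A_44_P378799, chr7:140888422-140888481, plus strand: gcggagcaaatgggctctatgtgccaaact
The Igf1 probes start at bases 584 (NM_001082479), 1613 and 1805 (NM_001082478), and 3757 and 6801 (XM_006241194) of the named transcripts, and together span 22.9 kb of chromosome 7. The 2 Igf1r probes start at bases 3835 (NM_052807) and 11376 (XM_008759500), and those of Insr at 4323 (NM_017071) and 8636 (XM_006248752). Igfbp2 and Igfbp5 lie side by side on chromosome 9 on opposite strands, with 9.5 kb between the starts of their probes, and Igfbp1 and Igfbp3 likewise on chromosome 14, with 4.5 kb. Igfbp4 on chromosome 10 and Igfbp6 on chromosome 7 have no other binding protein gene beside them in this set.

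A level is the log2 of a probe's processed signal after subtraction of its array's 75th percentile, so that 0 is the brightness of that percentile. A difference is the KI-treated mean minus the control mean. Levels of different probes are not set against each other, because probes bind with different strength. Between 34840 and 41050 gene spots per array were well above background and none was saturated, and precision is limited by how few arrays there are. Over all 25717 probes tested, limma with Benjamini-Hochberg adjustment called 0% at 0.05, and 12.7% had an unadjusted p under 0.05, with 1469 probes (5.71%) above and 1802 (7.01%) below the controls in KI-treated thyroids. The median difference of all tested probes was -0.08, which is the shift against which single differences are read.
The arrays of controls 4 and 6 were the least like the rest. Their mean Pearson correlation with the other arrays over 20714 probes was 0.963 and 0.973, against 0.980 to 0.984 for the other 11, and their 75th percentiles were the lowest (289.5 and 242.2 intensity units, against 357.8 to 547.2). They were the only controls of 1 of the 3 scan sessions, which also held KI-treated 2 and 3. Where leaving out both moved the difference of a named gene by over 1.5 times, the value without them is given too.
Of 10 follicular cell markers, 9 were well above background on all 13 arrays, and Slc26a4 on none. Thyroglobulin (Tg) had a mean level of 10.02 in the KI-treated and 10.28 in the control group. Markers of skeletal muscle, which lies against the thyroid, varied widely between animals, with 7 of 9 well above background on all arrays. Their summed level ran from 2.13 to 6.35 in the KI-treated and from 4.50 to 7.59 in the control group. Of 5 lymphocyte and thymocyte markers with a probe, 1 was well above background on all arrays, and KI-treated 1 had the highest summed level (3.97), whereas the controls ran from -1.12 to -0.70. In whole tissue, fewer cells of a type and less RNA per cell cannot be told apart.

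None of the 16 probes passed 0.05 after adjustment in limma, and their adjusted p ran from 0.353 to 0.817. Before adjustment 5 of 16 had a p under 0.05 (31.2%, against 12.7% of all tested probes), 4 of them lower and 1 higher after KI. These were Igf1 (by 2 of its 5 probes), Igfbp4 and Igfbp5, which were lower, and Igfbp6, which was higher. Without controls 4 and 6, 2 of 16 remained under 0.05 (12.5%, against 9.38% of all tested probes), the Igf1 probe A_44_P1087068 and Igfbp5. The count was also 2 of 16 with a replicate block (12.5%, against 9.16% of all tested probes). It was 2 to 6 with single arrays left out, where 9.19% to 17.9% of all tested probes were under 0.05. Under the other settings it was 3 to 5, against 8.8% to 19.9% of all tested probes. The difference was below 0 for 13 of the 16 probes and for 60.7% of all tested probes, and the median difference was -0.24 for the 16, against -0.08 for all. Taking the brightest probe of each gene, 9 of 10 differences were below 0 and 3 of 10 had an unadjusted p under 0.05. Several probes of 1 gene share its RNA and are not independent. The groups did not overlap for 0 of the 16 probes. Of all tested probes, 0.261% had every KI-treated array above every control and 0.327% every one below.

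**Figure D1:**
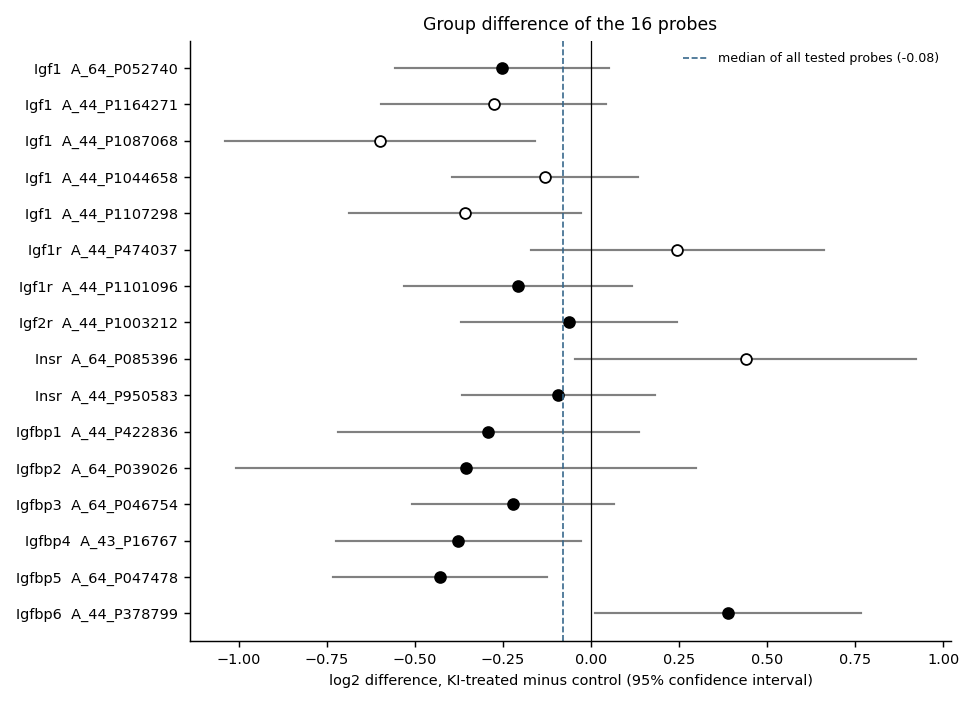
Difference in log2 level, KI-treated minus control, for each of the 16 probes (horizontal axis, log2 units) with its 95% confidence interval from limma. Filled circles are the brightest probe of a gene, open circles its other probes, and the dashed line is the median of all tested probes (-0.08). The intervals of 5 probes leave out 0, 4 on the lower and 1 on the higher side, and the probes of Igf1r and of Insr fall on both sides of 0.

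Igf1, the ligand, had a lower mean in the KI-treated group at each of its 5 probes. At the brightest, A_64_P052740, levels ran from 2.18 to 2.78 (median 2.35) in the 6 KI-treated thyroids and from 2.31 to 3.03 (median 2.72) in the 7 controls. The groups overlapped, with 3 KI-treated thyroids below all controls and KI-treated 4 (2.78) among the higher controls. The difference was -0.25 (standard error 0.14, 95% interval -0.56 to 0.05, adjusted p = 0.431 in limma), and the exact two-sided permutation test over the 1716 splits of the arrays gave p = 0.0880.
The largest difference among the 16 probes was that of A_44_P1087068, in the same gene. Its levels ran from -1.38 to -0.46 (median -0.70) in the KI-treated and from -0.75 to 0.52 (median -0.33) in the control group, where 6 of 7 controls lay above every KI-treated thyroid and control 4 (-0.75) did not. The difference was -0.60 (standard error 0.21, adjusted p = 0.354 in limma, exact permutation p = 0.0157), a level 0.660 times that of the controls. It was below 0 in each of the 3 scan sessions (-0.68 to -0.25) and on each of the 5 slides that held both groups. Without controls 4 and 6 it was -0.75 (exact permutation p = 0.00216).
The probe farthest along the transcript, A_44_P1107298, ran from 2.13 to 2.63 (median 2.22) in the KI-treated and from 2.09 to 2.94 (median 2.80) in the control group. Control 2 was the lowest array of all, while 4 controls lay above every KI-treated thyroid. The difference was -0.36 (standard error 0.15, adjusted p = 0.383 in limma, exact permutation p = 0.0425). Without controls 4 and 6 it was -0.32 (exact permutation p = 0.102), and within scan sessions it ran from -0.50 to -0.02.
At the 2 remaining probes, A_44_P1164271 and A_44_P1044658, the differences were -0.28 and -0.13, with exact permutation p = 0.0740 and p = 0.245, and both limma intervals included 0. Without controls 4 and 6 they were -0.22 and -0.21. The 5 probes did not rank the animals alike: KI-treated 2 was the lowest array at A_44_P1087068 and A_44_P1044658, but the highest of its group at A_44_P1164271.

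**Figure D2:**
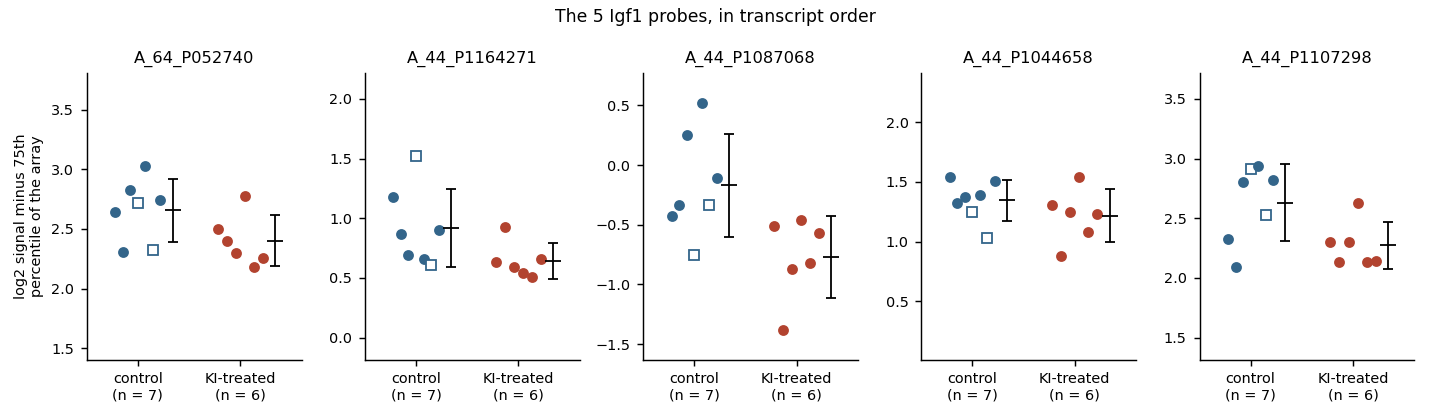
Level of each Igf1 probe (vertical axis, log2 signal minus the 75th percentile of the array; each panel spans the same number of log2 units) in every control (blue) and KI-treated (red) thyroid, in order along the transcript. Open squares are controls 4 and 6, and bars show the mean and SD. The KI-treated mean lies below the control mean in all 5 panels, and the points of the groups overlap in each.

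The receptors gave differences that were small, or that differed in sign between probes. Igf1r at its brightest probe, A_44_P1101096, ran from 1.96 to 2.81 (median 2.39) in the KI-treated and from 2.34 to 3.01 (median 2.49) in the control group. KI-treated 4 was the lowest and control 4 the highest, with wide overlap between the groups. The difference was -0.21 (95% interval -0.53 to 0.12, adjusted p = 0.507 in limma, exact permutation p = 0.190), and -0.11 without controls 4 and 6. The other Igf1r probe, A_44_P474037, which reads coding sequence, gave 0.25 (95% interval -0.17 to 0.66; exact permutation p = 0.259), with controls 4 (-1.77) and 6 (-1.54) as its lowest arrays and 0.01 without them.
The Insr probes differed in sign as well. The brightest, A_44_P950583, ran from -1.32 to -0.69 (median -1.03) in the KI-treated and from -1.14 to -0.73 (median -0.92) in the control group, and the KI-treated thyroids made up both ends of the range. The difference was -0.09 (95% interval -0.37 to 0.18, adjusted p = 0.704 in limma, exact permutation p = 0.439). The dim probe A_64_P085396, the 1 member probe not well above background on every array, ran from -3.76 to -3.21 (median -3.42) in the KI-treated and from -4.87 to -3.28 (median -3.81) in the control group. All 6 KI-treated thyroids lay above the control median there, and the difference was 0.44 (95% interval -0.05 to 0.92, adjusted p = 0.412 in limma, exact permutation p = 0.0950), or 0.16 without controls 4 and 6. It was 0.00 under normexp background correction and 0.25 with the deposited values.
Igf2r, which clears IGF2, had the smallest difference of the 16 probes. Levels ran from 3.27 to 3.53 (median 3.34) in the KI-treated and from 3.03 to 3.91 (median 3.35) in the control group, whose highest arrays were controls 6 (3.91) and 4 (3.81). The KI-treated thyroids lay inside the range of the controls. The difference was -0.06 (95% interval -0.37 to 0.24, adjusted p = 0.817 in limma, exact permutation p = 0.646), and its sign turned to 0.10 without controls 4 and 6 and to 0.06 under quantile normalization.

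Among the binding proteins, 5 of 6 had a lower mean in the KI-treated group, and Igfbp4, Igfbp5 and Igfbp6 had an unadjusted limma p under 0.05. Igfbp6 lost this under blocked fits (limma unadjusted p = 0.0772 by slide, 0.0919 by scan session and 0.122 by replicate number), and Igfbp4 with the replicate block (0.0632). Igfbp5, a binding protein of connective tissue and bone that binds the extracellular matrix, ran from 0.74 to 1.49 (median 1.12) in the KI-treated and from 1.14 to 1.82 (median 1.59) in the control group. All 6 KI-treated thyroids lay below the control median and 5 of 7 controls lay above every KI-treated thyroid, and control 4 (1.14) was the lowest control. The difference was -0.43 (standard error 0.14, 95% interval -0.73 to -0.12, unadjusted p = 0.00903 and adjusted p = 0.353 in limma, exact permutation p = 0.0111), or 0.743 times the control level.
The lower Igfbp5 level was found in each scan session (-0.85 to -0.16) and on each of the 5 slides with both groups (-0.93 to -0.07). Without controls 4 and 6 the difference was -0.51 (exact permutation p = 0.00866). The skeletal muscle markers moved the same way: 9 of 9 had a lower mean in the KI-treated group, and their summed level differed by -1.15. KI-treated 4 was the lowest array both for Igfbp5 (0.74) and for the summed muscle markers (2.13). The part of muscle in the Igfbp5 difference was not tested. A second probe, A_44_P264240, is described on the array as Igfbp5 3′ UTR mRNA but carries an Ensembl transcript ID in place of the symbol, so the rule did not take it, and it was named after its values were seen. Its difference was 0.20 (exact permutation p = 0.589), with control 4 at 0.16 and every other array at 1.08 or above, and -0.16 without controls 4 and 6.
Igfbp4, a soluble binding protein that mostly inhibits IGF action and is the main substrate of the protease PAPP-A, ran from 4.41 to 4.71 (median 4.59) in the KI-treated and from 4.51 to 5.57 (median 4.87) in the control group. The KI-treated thyroids lay close together (SD 0.10, n = 6), whereas the controls spread upwards (SD 0.39, n = 7) to control 6 (5.29) and control 4 (5.57). The difference was -0.38 (standard error 0.16, unadjusted p = 0.0357 and adjusted p = 0.384 in limma, exact permutation p = 0.0408). Within scan sessions it was -0.80, -0.19 and -0.15, and the first of these held controls 4 and 6. Without these 2 arrays it was -0.19 (exact permutation p = 0.115). Control 4 was also the highest array for the summed follicular, fibroblast and endothelial markers, whose part in the difference was not tested.
Igfbp6, the binding protein that prefers IGF2 over IGF1, was the 1 gene whose brightest probe had a higher mean in the KI-treated group. Levels ran from 0.46 to 1.16 (median 0.70) in the KI-treated and from 0.01 to 1.07 (median 0.33) in the control group. Control 1 (1.07) stood alone among the controls, the next of which was at 0.46, and 5 of 7 controls lay below every KI-treated thyroid. The difference was 0.39 (standard error 0.18, unadjusted p = 0.0450 and adjusted p = 0.389 in limma, exact permutation p = 0.0571). It was 0.50 without control 1 and 0.30 without controls 4 and 6 (exact permutation p = 0.164 for the latter). Within scan sessions it was 0.94, -0.10 and 0.29, so that the direction did not hold in the session of control 1.

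**Figure D3:**
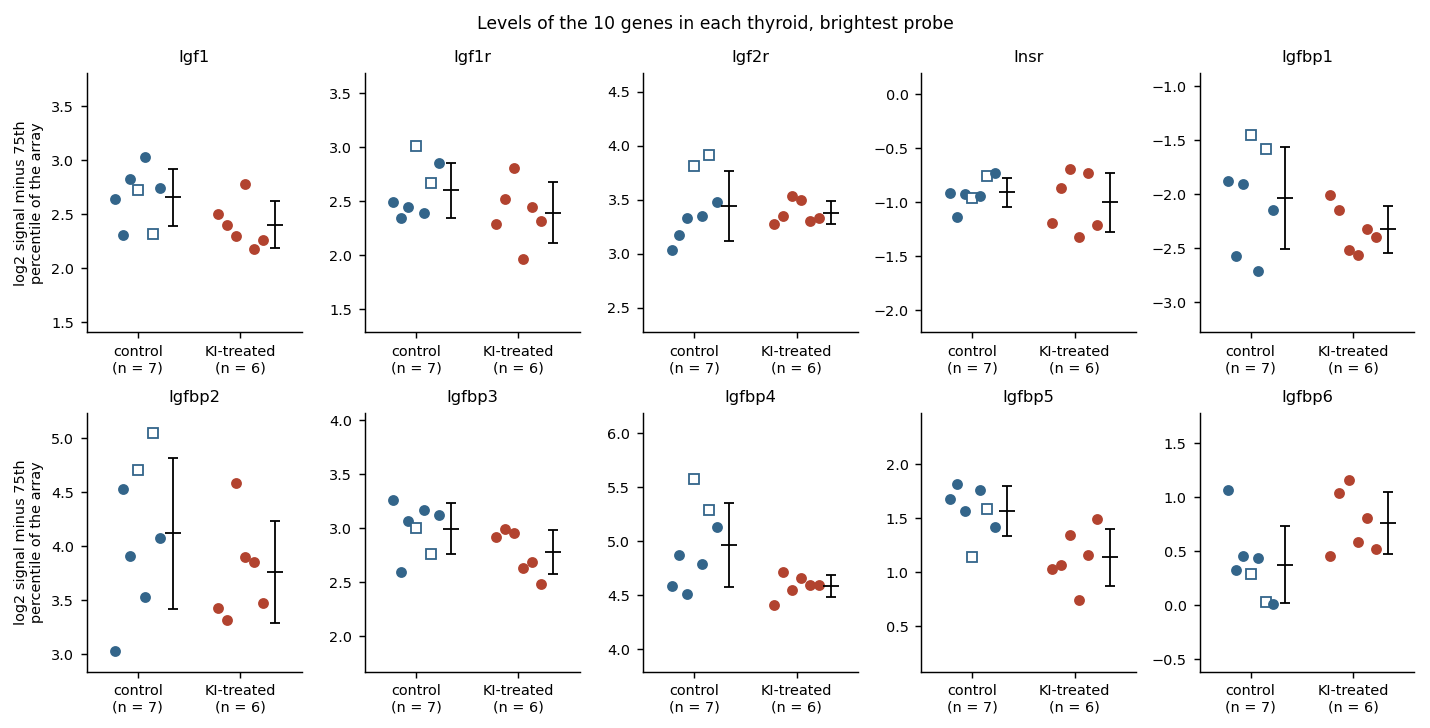
Level of the brightest probe of each of the 10 genes (vertical axis, log2 signal minus the 75th percentile of the array; each panel spans the same number of log2 units) in every control (blue) and KI-treated (red) thyroid. Open squares are controls 4 and 6, and bars show the mean and SD. Controls 4 and 6 are the highest points for Igf2r, Igfbp1, Igfbp2 and Igfbp4, and the groups overlap for all 10 genes.

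The other 3 binding proteins had lower KI-treated means that did not pass 0.05 even before adjustment. Igfbp2, a binding protein abundant in fetal tissue, ran from 3.32 to 4.59 (median 3.67) in the KI-treated and from 3.03 to 5.05 (median 4.08) in the control group, with control 1 the lowest and control 6 the highest. Its SD between animals of a group, 0.61, was the widest of the 16 probes and wider than that of 88.3% of all tested probes. The difference was -0.36 (95% interval -1.01 to 0.30, adjusted p = 0.555 in limma, exact permutation p = 0.314) and was -0.05 without controls 4 and 6.
Igfbp1, a liver-made binding protein regulated by insulin, was dim: levels ran from -2.56 to -2.01 (median -2.36) in the KI-treated and from -2.71 to -1.45 (median -1.91) in the control group. The KI-treated thyroids lay within the range of the controls, whose highest arrays were controls 4 (-1.45) and 6 (-1.58). The difference was -0.29 (95% interval -0.72 to 0.14, adjusted p = 0.488 in limma, exact permutation p = 0.194) and was -0.08 without these 2 arrays.
Igfbp3, which carries most IGF in blood as part of a ternary complex, ran from 2.48 to 2.99 (median 2.81) in the KI-treated and from 2.59 to 3.26 (median 3.07) in the control group. All 6 KI-treated thyroids lay below the control median, and control 2 (2.59) was the lowest control. The difference was -0.22 (95% interval -0.51 to 0.07, adjusted p = 0.451 in limma, exact permutation p = 0.105) and was -0.27 without controls 4 and 6.

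For 7 probes printed more than once, the spread between repeat spots of 1 array was set beside the spread between animals. The median SD of repeat spots ran from 0.018 (Igfbp4) to 0.068 (Igfbp6), whereas the SD between animals of a group ran from 0.224 (Igfbp3) to 0.607 (Igfbp2). For Igf1 and Igf2r, with 10 spots of 1 probe on every array, the median spot SD was 0.057 and the animal SD 0.243 and 0.248. Repeat spots share the RNA, labelling and hybridisation of their array, so these values leave out the error of those steps.

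**Figure D4:**
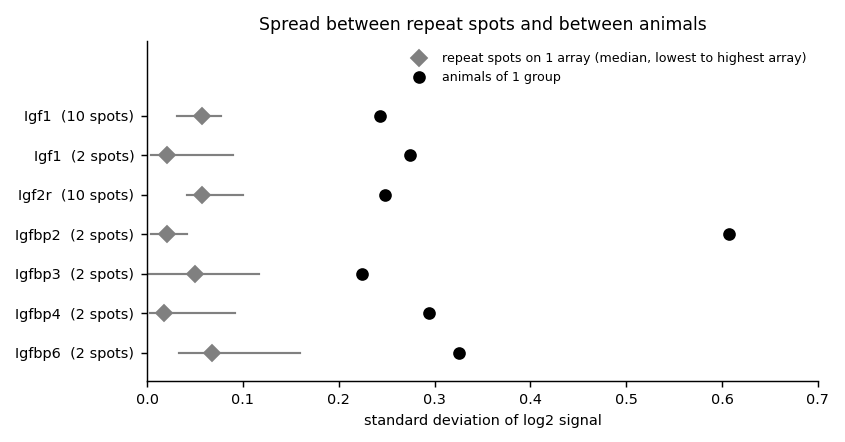
Standard deviation of log2 signal (horizontal axis) for the 7 probes with repeat spots: grey diamonds and lines give the median and the lowest to highest array for spots of 1 array, and black circles the SD between animals of 1 group. The animal SD lies to the right of the highest spot SD for all 7 probes.

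Across the 13 arrays, the brightest probes of the genes did not move as 1 block. As a description, the highest Pearson correlations between them were those of Igf2r with Igfbp2 (r = 0.76) and Igfbp4 (r = 0.74), and of Igf1r with Insr (r = 0.73). The arrays share scaling, and controls 4 and 6 stand apart: over the other 11 arrays the Igf2r values became 0.48 and 0.22, while that of Igf1r with Insr was 0.87. Igf1 was most like Igfbp3 (r = 0.62, and 0.60 over the 11). Igfbp4 and Igfbp6 ran in opposite directions (r = -0.62, and -0.55 over the 11).
The genes most like each member were sought among 14481 to 14485 named probes that were well above background on all arrays. For Igf1r the nearest was Lrp2, the endocytic receptor megalin (r = 0.97, and 0.97 over the 11 arrays), followed by Rpl27a and Timp3 (both 0.92). For Igf1 it was Cyp39a1 (0.84, and 0.88 over the 11), followed by Rgcc and Zbtb9 (both 0.81), and for Insr it was Tmem45b (0.90), followed by Pard6g (0.88) and Tsks (0.87). Igf2r was closest to Pld1, Cfdp1 and Rap1gds1 (all 0.97), and Igfbp4 to Psenen and Fam208b (both 0.97) and Tgoln2 (0.96).
For the other binding proteins the nearest genes were Apoc4, Rassf4 and Lime1 for Igfbp1 (all 0.91), and Arhgap12 (0.93), Stxbp6 (0.92) and Gnb1 (0.91) for Igfbp2. Igfbp3 was closest to Pxk (0.83), Lig3 (0.82) and Foxred2 (0.81), and Igfbp5 to Pnldc1 and Ptms (both 0.84) and Zbtb4 (0.82). Igfbp6 was closest to Cyp2d4 (0.92), Nfx1 (0.88) and Junb (0.87). Over the 11 arrays the values were lower for Igfbp1 (all 0.80), Igfbp2 (0.85 to 0.88), Igf2r (0.90 to 0.94) and Igfbp4 (0.89 to 0.94). They were higher for Igfbp3 (0.86 to 0.93). These are the highest values out of many probes on 13 arrays.

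The other genes of the pathway were read from a list of 75 genes of ligands, proteases, growth hormone signalling, receptor substrates, the PI3K-AKT and RAS-MAPK arms and IGF2 mRNA binding proteins, of which 70 were tested. None passed 0.05 after adjustment in limma. Before adjustment 7 of 70 did against 12.7% of all tested probes, all of them with a higher KI-treated mean, and the median difference of the 70 was -0.04. Among the ligands, Igf2 had a difference of -0.16 with a standard error of 0.13 (limma adjusted p = 0.538) and of -0.04 without controls 4 and 6, and Ins1 one of -0.12 with a standard error of 0.30 (limma adjusted p = 0.828) and of -0.20 without them.
Of 6 tested proteases of the binding proteins and inhibitors of these proteases, the mean was higher after KI for 5, and the median difference was 0.51. Of all 25717 tested probes 10103 had a higher mean. The 6 pool proteases with inhibitors, so they are not read as 1 direction of protease activity. Mmp2, the 1 with a lower mean (-0.17, and -0.10 without controls 4 and 6), gave 0.50 at its other probe. Htra1, a secreted serine protease that cleaves IGF binding proteins, ran from 1.50 to 2.20 (median 1.61) in the KI-treated and from 0.60 to 1.44 (median 1.23) in the control group. The groups did not overlap, which in this direction held for 0.261% of all tested probes. The Htra1 difference was 0.55 (standard error 0.16, adjusted p = 0.353 in limma, exact permutation p = 0.00117), at least 0.17 in each scan session, and 0.40 without controls 4 and 6 (exact permutation p = 0.00433). Stc1, a stanniocalcin that inhibits PAPP-A, differed by 1.32 with a standard error of 0.55 (limma adjusted p = 0.377), but by 0.48 without controls 4 and 6 (exact permutation p = 0.0779). Its lowest control was at -4.14. Pappa itself differed by 0.80 with a standard error of 0.40 (limma adjusted p = 0.407) and by 1.17 without controls 4 and 6, and its values in the KI-treated group ran from -2.24 to 0.35.
Downstream of the receptors, Mtor, the kinase that couples AKT to growth, ran from -1.85 to -0.32 (median -1.78) in the KI-treated and from -3.42 to -1.94 (median -1.99) in the control group. The groups did not overlap, which in this direction held for 0.261% of all tested probes. The exact permutation p of 0.000583 is the smallest that these splits allow. The difference was 0.71 (standard error 0.29, adjusted p = 0.370 in limma), and within scan sessions it ran from 0.18 to 1.77. It was 0.48 without controls 4 and 6 (exact permutation p = 0.0108). Inpp5d (SHIP1, a phosphatase of PI3K products) differed by 0.63, Spry2 (an inhibitor of RAS-MAPK signalling) by 0.56 and Irs3 (a receptor substrate) by 0.48. These values were 0.37, 0.27 and 0.22 without the 2 control arrays (exact permutation p = 0.0909, 0.0346 and 0.102).
Ptpn11 (the phosphatase SHP2) differed by 0.26 at its brightest probe (0.15 without controls 4 and 6) and by -0.05 at its other probe, and the second Spry2 probe gave -0.07. Irs1, the main docking protein of both receptors and the 1 lower gene among the 8 with the smallest p, differed by -0.49 with a standard error of 0.23 (limma adjusted p = 0.394), and by -0.66 without controls 4 and 6. Its levels ran from -4.02 to -2.77 in the KI-treated and from -4.01 to -2.59 in the control group, on a probe well above background on 11 arrays.

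The direction of the 10 differences was followed over 12 other ways of processing the arrays, over 13 fits that each left out 1 array, and without controls 4 and 6. Igf1, Igf1r, Insr, Igfbp1, Igfbp2, Igfbp3, Igfbp4 and Igfbp5 stayed lower and Igfbp6 higher in the KI-treated group at the brightest probe in all of these, and Igf2r took both signs. Igfbp5 ran from -0.50 to -0.35 with 1 array left out, with an unadjusted limma p under 0.05 in all 13 fits, against 6 of 13 for Igfbp4 and 4 of 13 for Igfbp6. Over the 12 other settings the unadjusted p was under 0.05 in 10 for Igfbp5, 10 for Igfbp4 and 6 for Igfbp6. Igfbp5 missed it with the deposited values and with the percentile taken over spots. The Igf1 probe A_44_P1087068 was under 0.05 in all 12. In none of these fits did any of the 16 probes pass 0.05 after adjustment. The smallest adjusted p in limma was 0.0724, at that Igf1 probe with array weights, and the smallest at a brightest probe was 0.108 (Igfbp5, array weights).

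**Figure D5:**
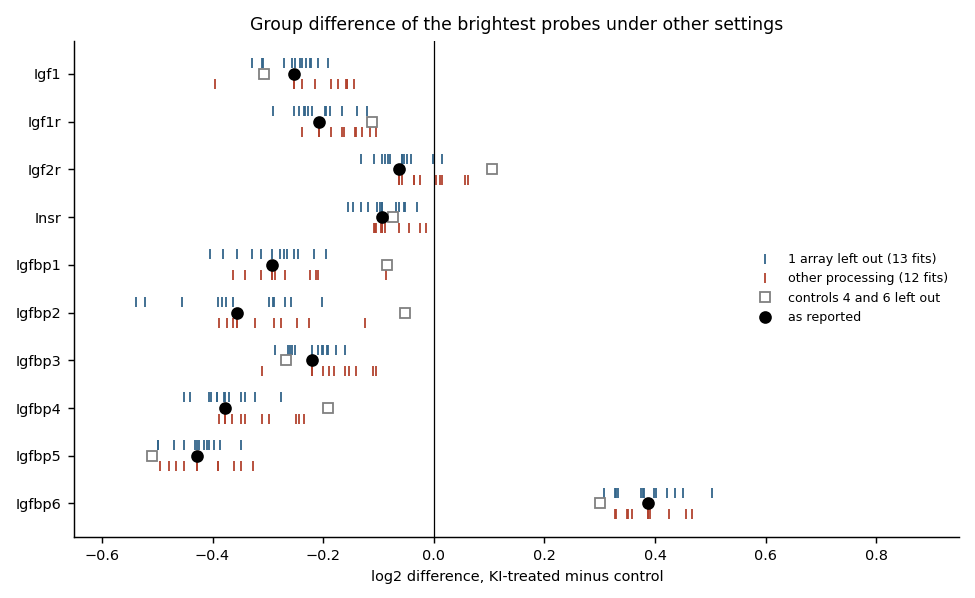
Difference in log2 level, KI-treated minus control (horizontal axis), of the brightest probe of each gene: black circles as reported, blue ticks with 1 array left out, red ticks under 12 other settings, and open squares without controls 4 and 6. Igf2r is the 1 gene whose marks lie on both sides of 0, and the squares of Igf1r, Insr, Igfbp1, Igfbp2, Igfbp4 and Igfbp6 lie nearer to 0 than most of their ticks.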

How the data were processed

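Per the labels and file headers, each array was scanned and quantified with Agilent Feature Extraction 10.7.3.1, and the authors deposited the resulting spot intensity values, background-subtracted and detrended but not scaled between arrays. A series table of log2 values, deposited by the authors with a normalization that is not given in the sources used here, served as an alternative. Its column medians ran from 6.21 to 6.34.

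Gene spots without an outlier flag were averaged per probe as log2 processed signal, and each array's 75th percentile over its 45598 probes was subtracted. Those probes that 6 or more of the 13 arrays held well above background were fitted with limma 3.58.1 (lmFit, eBayes) in R 4.3.3, without covariates, and adjusted by Benjamini-Hochberg over all 25717. The fit was tested on simulated data. Single probes were also tested by the exact two-sided permutation of the difference in means over 1716 splits (Python 3.11.15, numpy 2.4.6).

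A gene is represented by its brightest probe. All member probes are named. Of the pathway list the genes with the 8 smallest unadjusted p are named, with further ones added by role, and for likeness the 3 genes of highest Pearson correlation. The members and lists were chosen with earlier results of these data known. Scan session was taken from the scan date in the file headers. Arrays with the same scan date and time were taken to share a slide, and no slide number was read. Alternatives were quantile normalization, normexp (offset 50), the deposited values, other filters, slide, scan session or replicate number as a block, the methods' t-test, array weights, other probes and leaving out single arrays. Other sets for the 75th percentile and leaving out controls 4 and 6 together were chosen after seeing the data. Table columns of other samples: 0. The cortex arrays were not analysed here.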

Additional observations from a re-analysis of the deposited data

Results flagged for a closer look

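In 3 cases 1 thyroid stood far from the others of its group, by Dixon's ratio of the gap to the range; a rule of this kind also picks out groups by chance. For Igfbp6, control 1 was the highest control at 1.07, and the next was at 0.46. At the Igf1 probe A_44_P1164271, KI-treated 2 was the highest of its group at 0.93, and the next was at 0.66. At the Igf1 probe A_44_P1107298, KI-treated 4 was the highest of its group at 2.63, and the next was at 2.30.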

How the results depend on the processing

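The count of probes past 0.05 after adjustment was 0 in limma and under every alternative except array weights (50) and leaving out single arrays (0 to 1: 1 without control 1 and 1 without control 2). The unadjusted count of 3271 became 5120 with scan session as a block, and 2364 to 4598 with single arrays left out. Scaling moved the split of 1469 higher and 1802 lower probes to 1825 and 1455 under quantile normalization, 1885 and 1357 with the deposited values, 1789 and 1109 with the percentile over spots, 1685 and 1282 with that over tested probes, and 1166 and 3427 with normexp, with medians of all probes from -0.10 to 0.00. Same-numbered arrays did not deviate together (r from -0.22 to 0.06), so the numbers were not taken as pairs; with a replicate block the counts were 0 and 2356. Igf2r took the other sign under quantile normalization (0.062), the deposited values (0.057), array weights (0.011), the percentile over spots (0.016) or tested probes (0.0040), without controls 4 and 6 (0.10), and over single arrays left out (-0.13 to 0.014, the upper value without control 6). Igf1r gave 0.25 at its other probe and 0.018 for the mean of both, and Insr 0.44 and 0.17. The other 258 of 269 values of single members kept direction. No member passed 0.05 after adjustment in any of these fits, so the count speaks of direction only. Unadjusted calls did change, as given above for Igfbp4, Igfbp5 and Igfbp6. The causes were not tested. Differences of dim probes such as those of Insr and Igfbp1 are limited by their signal over background.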
